A study of Mus musculus with 7 samples.

Results

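Germ cells of the E12.5 ovary were examined as they stand between arrival in the gonad and entry into meiosis. They were chosen by measured counts: a cell of the E12.5 library was taken as a germ cell when at least 1000 genes were detected in it, when Dazl, Ddx4, Pou5f1 and Utf1 together had at least 4 unique molecular identifiers (UMIs, each marking 1 captured RNA molecule), when Col1a1, Col1a2 and Col3a1 together had at most 5, and when Wnt6 had 0. The rule found 295 germ cells among 4244 cells with at least 1000 genes (6.95%, exact binomial 95% interval 6.20 to 7.76), and the other 3949 cells of that library are the cells they are set beside. The library came from ovaries of untreated wild-type C57BL/6J embryos, pooled and dissociated in 0.25% trypsin for 20 min, and is 1 of 7 droplet libraries from E11.5 to P5 that hold 52542 cells in all. With 1 library at each age there is no replicate, so no test was made, and every interval below covers counting error only. Age, library and pool of embryos cannot be told apart.

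At this age primordial germ cells of the mouse ovary have settled in the gonad, have erased most of their DNA methylation, and divide with incomplete cytokinesis to form cysts of sister cells joined by bridges. They still carry the transcription factors of pluripotent cells, and they gain the RNA-binding proteins that license them to respond to meiosis-inducing signals. Retinoic acid and BMP signals from somatic cells then lead to Stra8 transcription, to premeiotic S phase and to assembly of meiotic cohesin and the synaptonemal complex.

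The germ cells were rich in RNA counts. Their median was 23264 UMIs and 4325 genes per cell, against 11171 UMIs and 3297 genes in the other cells, a ratio of 2.08 in UMIs. Single germ cells ranged from 1854 to 58275 UMIs, and the quartiles were 15606 and 28491. The pooled germ cells held 6591853 UMIs and the pooled other cells 47745425. Levels below are CPM, the summed UMIs of a gene per 1000000 UMIs of the pooled cells. A gene given at 0 in the germ cells had no UMI there, which allows a level of up to 0.455 CPM (3 counts). Mitochondrial genes took a median of 3.49% of UMIs in germ cells and 3.62% in the other cells.

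The label was checked on genes outside the rule as far as the marker lists allow. Dppa5a, a KH-domain protein of pluripotent cells and the marker of the set that the rule did not use, had a UMI in 99.7% of the germ cells. Every cell was then thinned to 5000 UMIs, which left 274 germ cells. Dppa5a was found in 99.6% of these and in 4.40% of the other cells. Whether free RNA or mixed droplets gave UMIs there was not tested. Most markers of somatic classes were low in the germ cells. Without Wnt6, which the rule sets to 0, the 7 supporting cell markers summed to 26.7 CPM in germ cells and 959 in the other cells, with Irx3 the most abundant of them in germ cells at 8.04. Of the 8 mesenchymal markers, 3 are the collagen genes that the rule limits. The 5 others summed to 6.83 against 462, with Nr2f2 the most abundant in germ cells at 3.19 and Postn at 0. The 7 epithelial markers summed to 28.8 against 392, mainly Krt18 at 20.6, and the 8 gonadal somatic markers to 14.7 against 707. The 9 immune markers summed to 5.76 against 193, with Ptprc and Csf1r at 0. The endothelial list stood closer, at 72.5 against 121, through Pecam1, an adhesion protein also known in germ cells, at 52.0 against 8.78, while Cdh5, Kdr and Emcn were at 1.06, 0.910 and 0.607. The mesonephric list was at 34.7 against 171, with the homeobox gene Lhx1 at 27.9 against 10.6 and Pax2 at 0. The highest somatic sum was that of the erythroid list, at 1996 CPM in germ cells and 18403 in the other cells, with the haemoglobin gene Hbb-y the most abundant in both. A single germ cell had 15.6% of its UMIs from that list, and the other 294 cells together had 938 CPM.

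Some cells of the library went against the ovary label. A UMI of a Y-linked gene was found in 18 germ cells (6.10%) and in 310 other cells (7.85%). The Sertoli cell genes Sox9 and Amh were at 40.6 and 33.1 CPM in the other cells. Leaving out all cells with a Y-linked UMI gave 277 genes at least 4-fold higher in germ cells in place of 258. Of the barcodes of the E12.5 library, 228 also occur in another library, 17 of them among the germ cells. Whether this is more than separate libraries share by chance was not tested.

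The cells at the border of the rule are few. The summed UMIs of the 4 germ genes ran from 4 to 102 in the germ cells, with a median of 35, and 15 germ cells had 4 to 7. Just inside the threshold, 2 cells had a sum of 4 and 6 had a sum of 5, and Dppa5a was held by 1 of the former and all 6 of the latter. Just outside, among cells that met the collagen and Wnt6 limits, 7 cells had a sum of 3, of which 5 held Dppa5a, and their median depth was 2926 UMIs. The limits on somatic genes removed a further 62 cells that had passed the germ threshold, 57 of them by Wnt6. These mixed cells stay among the other cells, where they hold 88.2% of the Dazl UMIs and 85.5% of the Dppa5a UMIs. For this reason, some values are also given for the 3379 other cells without a UMI of the 4 germ genes. Levels fell there by unequal amounts, Dppa5a from 63.0 to 7.12 CPM, Kit from 6.35 to 4.44 and Ifitm1 from 885 to 843.

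Of 7997 genes with a mean of at least 10 CPM over both pools, 258 (3.23%) were at least 4-fold higher in the germ cells and 1214 (15.2%) at least 4-fold lower. The same 2 pools define the germ cells, so these counts describe them and test nothing. A gene that passes the filter only through its level in 1 pool has to differ between the pools, so that counts and medians over the compared members of a list are descriptions as well. The median log2 ratio over all compared genes, with 2 CPM added to both levels, was −0.20, and trimmed-mean scaling (TMM) moved it to 0.07.

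Promoter sequence of genes at the top of the ranking is shown because germ line promoters of this kind are known to be rich in CpG, held silent in somatic cells by DNA methylation and by the repressor complex PRC1.6, whose MGA-MAX part binds E-boxes and whose E2F6 part binds E2F sites. RefSeq promoter windows (GRCm38.p6, 250 bases before to 50 after a start) matched 14 of the 20 highest-ranked genes. Each line gives the 200 bases before a start, 5′ to 3′ on the gene's strand, with capitals on the E-box CACGTG or the octamer ATGCAAAT on either strand. They lie at chr6:49395339-49395538 on the plus strand for Stk31, chr5:135350045-135350244 on the minus strand for Fkbp6, chr11:121145943-121146142 on the plus strand for Tex19.1 and chr8:43307010-43307209 on the minus strand for Zfp42.
Stk31: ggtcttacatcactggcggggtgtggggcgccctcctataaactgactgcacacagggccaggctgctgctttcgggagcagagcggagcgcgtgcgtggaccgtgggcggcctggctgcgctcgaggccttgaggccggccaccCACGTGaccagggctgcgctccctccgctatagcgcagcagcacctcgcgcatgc
Fkbp6: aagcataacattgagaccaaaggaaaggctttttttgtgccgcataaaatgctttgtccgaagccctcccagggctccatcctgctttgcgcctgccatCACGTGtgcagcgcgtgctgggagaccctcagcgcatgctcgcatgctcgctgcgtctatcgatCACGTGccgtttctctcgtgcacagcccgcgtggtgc
Tex19.1: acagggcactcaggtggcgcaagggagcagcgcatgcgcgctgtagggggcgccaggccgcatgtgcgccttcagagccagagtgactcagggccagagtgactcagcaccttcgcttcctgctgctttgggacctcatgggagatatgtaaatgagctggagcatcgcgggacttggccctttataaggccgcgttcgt
Zfp42: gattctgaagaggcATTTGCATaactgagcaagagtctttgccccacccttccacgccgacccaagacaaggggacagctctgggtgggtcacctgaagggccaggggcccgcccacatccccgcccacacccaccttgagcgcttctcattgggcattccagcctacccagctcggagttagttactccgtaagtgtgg

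Stk31 had 1 E-box in the stretch shown and Fkbp6 had a pair of them. Tex19.1 had neither motif there but 13 CpG, and Zfp42 had an octamer, the element bound by POU5F1. Among all 32851 promoter windows, 7.15% held CACGTG, 2.19% held the E2F motif GGCGGGAA on either strand and 1.74% held the octamer. Among the 8095 windows of genes compared here the shares were 10.7%, 4.42% and 1.11%. Among the 258 windows of the 201 matched genes at least 4-fold higher in germ cells they were 12%, 8.14% and 1.55%, and among the 1226 windows of genes at least 4-fold lower they were 6.04%, 2.53% and 1.39%. The E-box window count in the higher genes was 31 and the E2F count was 21. Median CpG numbers in a window were 19 for the higher genes, 17 for the lower genes and 22 for all compared genes. Of the 14 matched top genes, 3 (Stk31, Ddx4 and Fkbp6) held an E-box, and Ddx4 also held the E2F motif. A match is a description of these letters and not of binding.

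The core of the germ line program was high in the germ cells. Of 14 compared genes of a germ line list, 13 were at least 4-fold higher and none lower, against 3.23% and 15.2% of all compared genes. The median log2 ratio of the list was 3.69. Without the rule genes Dazl and Ddx4 the count was 11 of 12. Members scarce in the other cells, such as Tfap2c and Prdm1, had to be called higher once they passed the filter. Dazl, the RNA-binding protein that licenses germ cells for sexual differentiation (Ensembl ENSMUSG00000010592, GRCm38 chr17:50279395-50293636), was at 622 CPM (95% interval 603 to 641) in germ cells and 15.4 in the other cells, a 40.4-fold difference (37.3 to 43.8). Ddx4, the germ granule RNA helicase (ENSMUSG00000021758, chr13:112598333-112652475), was at 162 against 4.38. Both are genes of the rule. Dppa3, a protein of germ cells and early embryos that guards against unscheduled DNA methylation change (ENSMUSG00000046323, chr6:122626410-122630272), was outside the rule and stood at 863 against 23.0, 37.5-fold higher (35.2 to 40.1). Against the 3379 unmarked other cells, Dppa3 was at 2.91 and Stk31, a Tudor-domain kinase of germ cells, at 0.281, beside 863 and 214 in germ cells. Dnd1, an RNA-binding protein that protects germ cell survival, was at 179 against 7.71, and Kit, the receptor for the somatic Kit ligand, at 50.5 against 6.35. The specification factors Tfap2c and Prdm1 were still present at 54.2 and 29.0, against 1.80 and 3.16. Ifitm1, a membrane protein of migrating germ cells, was at 929 in germ cells and 885 in the other cells, and was the 1 compared member of the list that was not 4-fold apart.

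**Figure D1:**
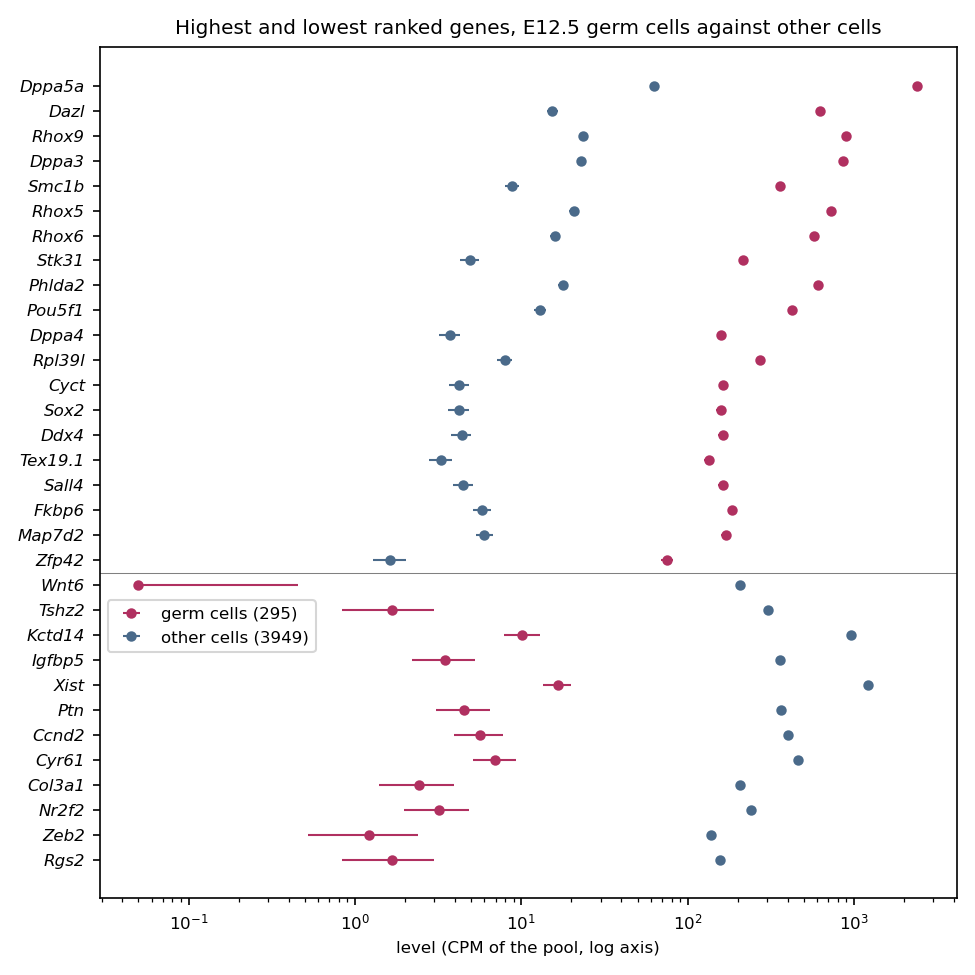
Levels (CPM of the pool, log axis) of the 20 highest and 12 lowest ranked genes in the 295 germ cells and the 3949 other cells of the E12.5 library, with exact Poisson 95% intervals that cover counting error only. Wnt6, at 0 in the germ cells by the rule, is drawn at the left end with a bar to 0.455 CPM, the level of 3 counts. Dazl, Pou5f1, Ddx4 and Col3a1 are genes of the rule as well. The upper 20 genes were picked by their ratio, and every one was over 20-fold higher in the germ cells. They ran from Dppa5a at 2387 against 63.0 to Zfp42 at 75.2 against 1.63.

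Most compared genes of the pluripotency list were higher in the germ cells than in the other cells. Of 20 compared members, 16 were at least 4-fold higher in germ cells and 2 lower, against 3.23% and 15.2% of all compared genes. The median log2 ratio of the list was 3.86. Without Pou5f1 and Utf1, which chose the cells, the counts were 14 and 2 of 18. Members scarce in 1 pool had to be called, such as Nanog and Zfp42 as higher and Klf4 and Nr0b1 as lower. Dppa5a (ENSMUSG00000060461, chr9:78367052-78368177) was at 2387 against 63.0, 37.9-fold (36.4 to 39.4), and at 7.12 in the unmarked other cells. Pou5f1, the POU factor OCT4 (ENSMUSG00000024406, chr17:35506018-35510772), was at 422 against 12.9, and Utf1, a chromatin protein of pluripotent cells (ENSMUSG00000047751, chr7:139943789-139945112), at 454 against 19.9. Sox2, the partner of OCT4 on DNA, was at 158 against 4.21. Sall4, a zinc finger factor of germ and pluripotent cells, was at 162 against 4.46, Dppa4 at 159 against 3.71, and Zfp42, the zinc finger marker REX1, at 75.2 against 1.63. Nanog, a homeobox factor of the same network, was at 32.3 against 0.796. The 2 lower members were Klf4, at 3.94 against 71.1, and Nr0b1, at 3.03 against 19.8. Klf2 was at 98.5 against 59.7 and Fgf4 was at 0 in both.

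Genes of germ granules and of the piRNA pathway, which silence transposons in germ cells, were already present. Of the 18 listed genes, 8 could be compared. No listed gene was above 6.05 CPM in the other cells (Tdrkh), so that those 8 passed the filter through their level in the germ cells and had to be higher there. Fkbp6, a cochaperone that helps load piRNAs, was at 184 against 5.82, and Tex19.1, which limits retrotransposons, at 134 against 3.29. Mov10l1, the piRNA helicase, was at 61.3 against 1.61, and Asz1, a mitochondrial scaffold of piRNA factors, at 41.9 against 0.942. Piwil2, a PIWI protein that binds piRNAs, was at 29.9 against 1.19.

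Of 10 listed homeobox genes of the X-linked Rhox cluster, 5 could be compared. Of these, 4 were at least 4-fold higher and 1 lower, against 3.23% and 15.2% of all compared genes. Rhox1, scarce in the other cells, had to be called higher once it passed the filter. Rhox9 was at 898 against 23.6, Rhox5 at 724 against 20.7, Rhox6 at 573 against 16.0 and Rhox1 at 38.7 against 1.11. The 5th compared member, Rhox8, was at 4.70 in germ cells and 20.8 in the other cells. Near-identical copies within this cluster can share reads, so that values of single members are uncertain. Among the remaining top genes were Smc1b, treated with the meiotic genes, Map7d2, a microtubule-binding protein, Cyct, the testis form of cytochrome c, and Rpl39l, a germ line copy of a ribosomal protein. Cyct was at 164 against 4.23 and Rpl39l at 271 against 7.96.

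Several meiotic genes were present in the E12.5 germ cells taken as 1 pool. Of 13 compared members of the meiotic entry list, 10 were at least 4-fold higher in germ cells, against 3.23% of all compared genes. None of the 13 was 4-fold lower, their median log2 ratio was 3.34, and 14 of the 27 listed genes were below the level compared. Members scarce in the other cells, such as Sycp1, passed the filter through the germ cells and had to be called higher. Smc1b, a meiosis-specific cohesin subunit (ENSMUSG00000022432, chr15:85064689-85131964), was at 360 against 8.75, 41.1-fold (37.0 to 45.7), and at 1.89 in the unmarked other cells, a 191-fold difference. Stag3, its partner in cohesin, was at 51.0 against 1.78. The synaptonemal complex genes Syce2, Sycp1 and Sycp3 were at 444 against 67.2, 49.3 against 1.01 and 47.8 against 1.68. Hormad1, a chromosome axis protein, was at 48.7 against 1.09. Stra8, the retinoic acid target needed for meiotic entry (ENSMUSG00000029848, chr6:34920163-34939344), was at 31.9 (27.7 to 36.5) against 1.26. Rec8, the meiotic kleisin, was at 20.6 in germ cells and 25.6 in the other cells. Genes of meiotic recombination were lower in level. Dmc1, the meiotic recombinase, was at 8.80 (6.68 to 11.4) against 1.68 and had a UMI in 17.3% of the germ cells. Spo11, which cuts DNA to start recombination, was at 2.88 and Prdm9, which marks the sites, at 1.21, and Meiosin, listed as Gm4969, was at 0.607.

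Of 11 listed genes of the male germ line path, 9 were below the level compared. The 2 others were the cell cycle inhibitors Cdkn1b and Cdkn1c, both at least 4-fold lower than in the other cells, as were 15.2% of all compared genes. Cdkn1c was the most abundant of the list in germ cells at 54.8 CPM. Nanos2, the RNA-binding protein of fetal prospermatogonia, had no UMI in either pool, and Dnmt3l, a cofactor of male germ line methylation, was at 0.152. The ligand Nodal was at 1.52 and its inhibitors Lefty1 and Lefty2 at 7.74 and 12.3, higher in level than the 0.126, 0.922 and 0.670 of the other cells.

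Genes of the retinoic acid and BMP pathways, which signal to these cells, were mostly lower in level than in the other cells. In the retinoic acid list, 0 of 9 compared genes were at least 4-fold higher and 4 were lower, with a median log2 ratio of −1.44, and 1 was higher in level. Over all compared genes, 57.5% were lower in level and 15.2% at least 4-fold lower. Rara, a retinoic acid receptor, was at 8.65 against 23.9, Rarg at 5.61 against 4.21, while the 4 lower genes were the retinaldehyde dehydrogenases Aldh1a1 and Aldh1a2, at 1.67 against 43.5 and 2.88 against 80.2, and the retinol metabolism genes Rdh10 and Dhrs3, at 3.49 against 21.9 and 0.759 against 31.2. The binding protein Crabp1 was at 41.0 against 33.8. In the BMP list, 1 of 13 compared genes was higher and 5 were lower, or 3 under TMM, which lost Id1 and Smad5, and 2 of the 13 were higher in level. The higher one was Msx2, a homeobox target of BMP, at 29.6 against 4.23, while the general BMP targets Id1 and Id2 were at 101 against 453 and 46.1 against 305. The other lower genes were the ligand Bmp2, at 0.607 against 43.6, the receptor Bmpr2, at 5.61 against 31.1, and the transducer Smad5, at 17.3 against 77.7. The receptor Bmpr1a was at 25.9 against 42.5.

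Of 9 compared genes that control DNA methylation, 1 was at least 4-fold higher and 3 were lower, against 3.23% and 15.2% of all compared genes. Under TMM 1 was lower, Dnmt3a and Uhrf1 being lost, a share near that of all genes, of which 1000 of 7952 were lower. Tet1, which oxidises methylcytosine, was at 147 against 25.7, and Dnmt1, the maintenance methyltransferase, at 208 against 74.6. Uhrf1, the factor that recruits DNMT1 to replicated DNA, was at 10.0 against 47.3, and Dnmt3a, a de novo methyltransferase, at 23.5 against 106. Tet3, a second oxidase of methylcytosine, was at 0.910 against 48.8. Of the 12 PRC1.6 and E2F repressor genes, none was 4-fold higher or lower, against the same 3.23% and 15.2% of all compared genes. Mga was at 93.6 against 75.9, Max at 33.5 against 33.0 and Pcgf6, the subunit that defines PRC1.6, at 70.7 against 23.5. Hells, a chromatin remodeller needed for meiotic chromosomes, was at 939 against 109.

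**Figure D2:**
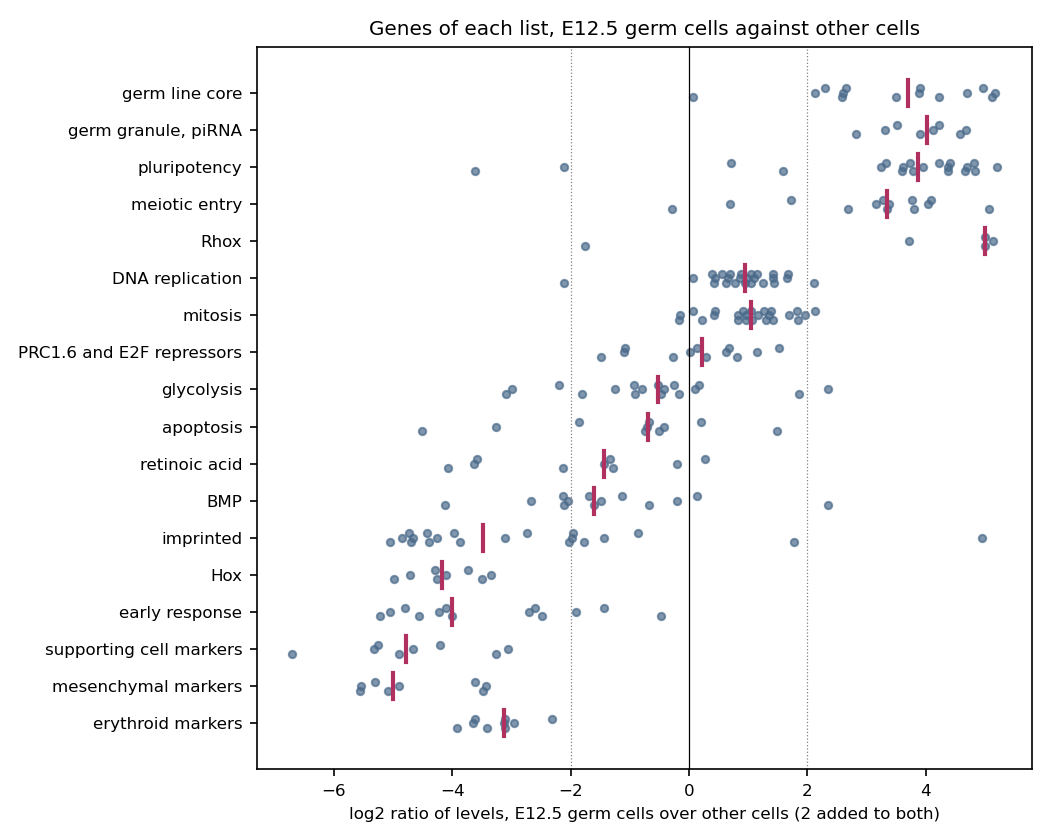
Log2 ratio of levels in E12.5 germ cells over other cells, with 2 CPM added to both. Each point is a compared gene, the bar is the median of its list, and dotted lines mark 4-fold. Germ line, piRNA, pluripotency and meiotic entry genes lie mostly right of the upper dotted line, replication and mitosis genes between 0 and it, and imprinted, Hox and somatic marker genes mostly left of the lower one.

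Imprinted genes and developmental patterning genes were low. Of 20 compared imprinted genes, 14 were at least 4-fold lower and 1 higher, against 15.2% and 3.23% of all compared genes. The median log2 ratio of the imprinted genes was −3.49. The noncoding RNA Meg3 was at 42.6 against 1475, the noncoding RNA H19 at 51.0 against 1106, and Cdkn1c, a cell cycle inhibitor, at 54.8 against 1466. The 1 imprinted gene at least 4-fold higher was Phlda2, a regulator of placental growth (ENSMUSG00000010760, chr7:143501545-143503150), at 608 against 17.8. Under TMM 2 were higher and 12 lower, Snrpn being gained and Kcnq1ot1 and Usp29 lost. All 29 Hox genes listed were below 1 CPM in the germ cells, 11 of them at 0. The 8 that could be compared passed the filter through their level in the other cells. Hoxc8 was at 0.607 against 80.3. A list of 13 genes known to rise when cells are dissociated held 9 immediate early genes and 4 heat shock genes. Of them, 10 were at least 4-fold lower in the germ cells, against 15.2% of all compared genes. The other 3 were Jund, at 148 against 403, and the heat shock genes Hspb1 and Dnajb1, at 34.4 against 136 and 62.0 against 86.5. Jun was at 25 against 1006 and Fos at 18.2 against 346. Among the other lowest-ranked genes were the transcription factor Tshz2, at 1.67 against 305, the growth factor Ptn, at 4.55 against 365, and the matricellular gene Cyr61, at 6.98 against 462.

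Most cell cycle genes were moderately higher in level in the germ cells, 24 of 25 compared replication genes and 22 of 24 mitosis genes, where 42.5% of all compared genes were higher in level. Of the 25 replication genes, 1 was at least 4-fold higher (Ung, a uracil-DNA glycosylase, at 234 against 52.3) and 1 lower (Gins2, of the replicative helicase, at 12.4 against 60.6), and the median log2 ratio was 0.94. Of the 24 mitosis genes, 2 were at least 4-fold higher, and the median was 1.05. Cenpf, a kinetochore protein, was at 890 against 203, and Ect2, an activator of cytokinesis, at 62.7 against 14.6. Top2a, the topoisomerase of dividing cells, was at 511 against 211. Cells were also compared at 1 depth of 10000 UMIs, which 252 germ cells and 2379 other cells reached. The 24 mitosis genes together had a median of 38.5 UMIs per germ cell (range 11 to 83) against 2 in the other cells (range 0 to 196). No germ cell had 0 of them, whereas 23.2% of the other cells did. Mki67 was detected in 75% of the germ cells (69.2 to 80.2) and 28.2% of the other cells (26.4 to 30.0), Ccnb1, a mitotic cyclin, in 71.4% and 23.2%, and Pcna, the replication clamp, in 59.1% and 29.7%. Over all compared genes, 3.23% were at least 4-fold higher and 15.2% at least 4-fold lower. Of 8 compared D-type cyclins and inhibitors of cyclin-dependent kinases, 1 was at least 4-fold higher, 4 were lower and 3 were neither. The lower genes were the cyclins Ccnd1 and Ccnd2, at 16.54 against 86.4 and 5.61 against 400, and the inhibitors Cdkn1b, at 4.55 against 80.8, and Cdkn1c, given with the imprinted genes. The higher one was the inhibitor Cdkn2a, at 31.9 against 1.15. Cdkn1a was at 50.2 against 50.4, Cdkn2d at 29.3 against 27.0 and Ccnd3 at 85.1 against 101. Under TMM 4 mitosis genes in place of 2 were at least 4-fold apart.

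X-linked genes were examined because germ cells of the female reactivate the silent X chromosome at about this age. Xist, the noncoding RNA that coats the inactive X (ENSMUSG00000086503, chrX:103460366-103483254), was at 16.54 CPM (13.6 to 19.9) in the germ cells and 1206 (1196 to 1216) in the other cells. A UMI of Xist was found in 60 of 295 germ cells (20.3%, 15.9 to 25.4) and in 89.6% of the other cells, and 6 germ cells had 3 or more. Neither Xist nor a Y-linked UMI was found in 219 germ cells. Tsix, antisense to Xist, was at 0.607 against 60.3. Across 265 compared X-linked genes without Xist and Tsix, the median log2 ratio was −0.30 against −0.20 for 7712 autosomal genes. The difference of −0.11 was small beside the spread between genes, whose quartiles on the X were −1.92 and 0.60. It turned to 0.24 when only genes with a mean of at least 50 CPM were kept. Of the X-linked genes 29 (10.9%) were at least 4-fold higher, against 2.97% of autosomal genes, and 70 (26.4%) at least 4-fold lower, against 14.8%. By the same rule the difference was −0.29 at E11.5 and 0.16 at E14.5. The libraries differ in sex makeup, a Y-linked UMI being found in 35.9% of the germ cells and 29.0% of the other cells at E11.5, in 6.10% and 7.85% at E12.5, and in 1 germ cell and no other cell at E14.5, and its part in these differences was not tested.

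**Figure D3:**
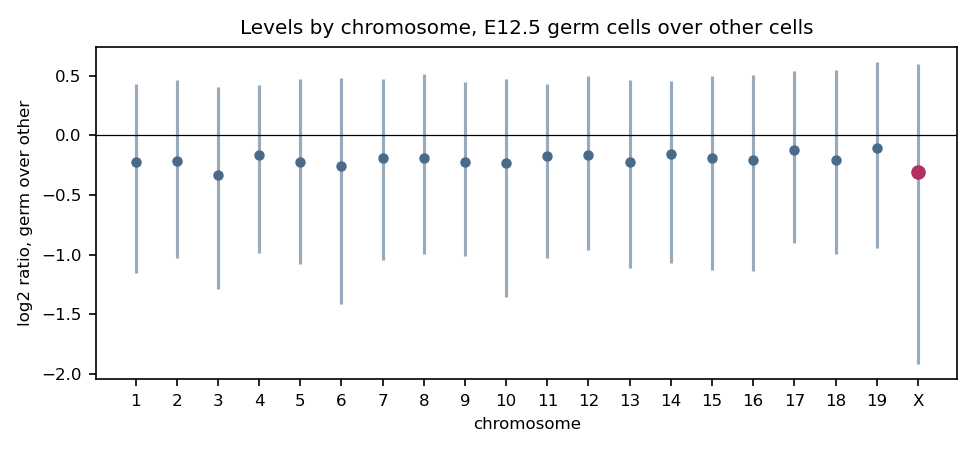
Median log2 ratio of levels, E12.5 germ cells over other cells, for the compared genes of each chromosome, with bars from the lower to the upper quartile of genes. The X chromosome, at −0.30 without Xist and Tsix, lies within the range of the autosomes' quartiles and has the longest bar.

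Among the germ cells, variation was found along the cell cycle and along the approach to meiosis. In the 252 germ cells at 10000 UMIs, the median Fano factor (variance over mean of UMIs per cell) of genes with a mean of at least 0.5 was 1.10, where counting alone gives about 1. The highest factors belonged to 5 haemoglobin genes, which had a median of 5 UMIs for Hbb-y and 0 or 1 for the others, while a single cell had 878 Hbb-y UMIs. They were followed by mt-Co3, Malat1, mt-Co1, Hist1h2ap, mt-Atp6, mt-Co2 and Hsp90aa1. Of all 295 germ cells, 8 had over 10% mitochondrial UMIs, with a highest share of 40.3%. Hist1h2ap, a replication-dependent histone, had a factor of 8.61, with a lowest value of 0, a median of 6 and a highest of 44 UMIs per cell.

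Hist1h2ap and the mitosis genes were opposed, with Pearson r −0.58 and Spearman rho −0.60 over the 252 cells, though some cells were low in both. Replication and mitosis lists were likewise opposed, with r −0.55 and rho −0.56. These correlations are across cells of 1 library at 1 depth and are descriptions. The pluripotency list (lowest 19, median 43, highest 78 UMIs) and the meiotic entry list (0, 11 and 38) were also opposed, with r −0.44 and rho −0.44. Since all UMIs of a cell sum to the same total, some opposition between large lists is built in.

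**Figure D4:**
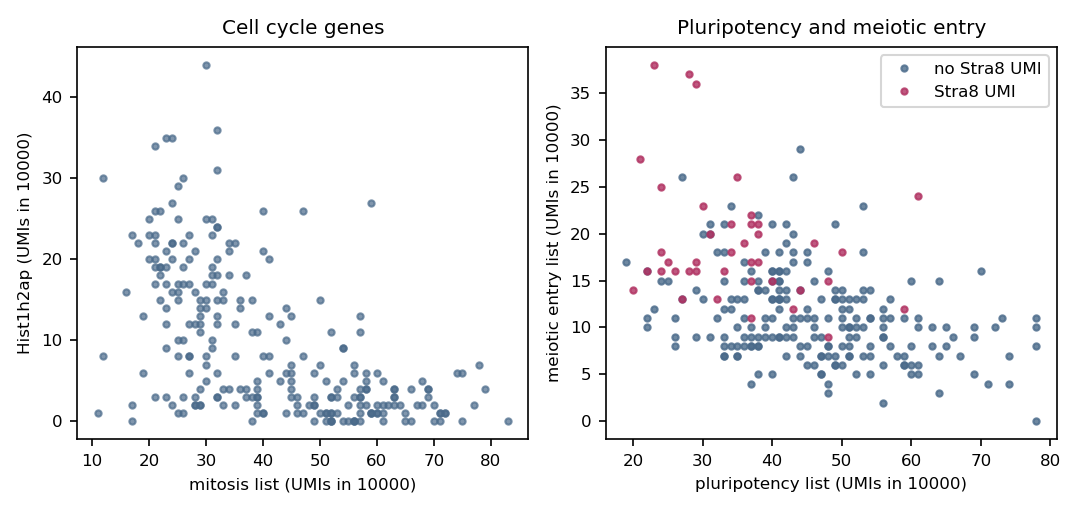
Left: Hist1h2ap UMIs against UMIs of 24 mitosis genes in each of 252 germ cells thinned to 10000 UMIs. Right: UMIs of the meiotic entry list against the pluripotency list in the same cells, with the 40 cells that had a Stra8 UMI in a second colour. Most cells with many mitosis UMIs had few of Hist1h2ap. The cells with the most meiotic entry UMIs were mostly cells with a Stra8 UMI, a gene of that list.

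Stra8 RNA was found in a minority of the germ cells. At 10000 UMIs, 40 of 252 had a Stra8 UMI (15.9%, 11.6 to 21), of which 23 had 1, and the highest cell had 8. Without thinning, 62 germ cells (21%) and 9 other cells (0.228%) had one. The 40 cells and the 212 without are ends of a range set by detection, with similar median depths of 25668 and 24662 UMIs. The 8 Y-linked genes had no UMI in the Stra8 group and were at 7.43 CPM in the rest, and the part of sex makeup in the values below was not tested. Of 6730 genes compared between them, 114 (1.69%) were at least 2-fold higher in the Stra8 group and 104 (1.55%) at least 2-fold lower. In the meiotic entry list 4 of 16 compared genes were at least 2-fold higher (Stra8 by construction, Rec8, Sycp1 and Tex101), and all 16 were higher in level, where 52.0% of all compared genes were. Rec8 was at 52.4 against 14.9, 3.53-fold (2.43 to 5.07), and Sycp1 at 114 against 36.6, 3.12-fold (2.45 to 3.95). Smc1b was at 596 against 315, 1.89-fold (1.72 to 2.08), and Dazl at 876 against 568. Sycp3 was at 56.5 against 46.1, and the interval of its ratio, 0.899 to 1.65, includes 1. Of 18 compared pluripotency genes, 2 (Trim71 and Esrrb) were higher in level in the Stra8 group and none was 2-fold apart. Zfp42 was at 44.2 against 81.2, a ratio of 0.544 (0.388 to 0.745), Klf2 at 54.4 against 106, and Utf1 at 330 against 480. The erythroid list summed to 875 CPM in the Stra8 group and 2232 in the rest, with 6 of 7 compared genes at least 2-fold lower. Without the 1 cell rich in haemoglobin, which was among the rest, they were at 937, none of the 7 was 2-fold apart, and the counts over all genes were 118 higher and 96 lower. Dppa3, at 873 against 861, had an interval of the ratio, 0.942 to 1.09, that includes 1.

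Germ cells of the flanking ages were taken by the same rule, which gave 39 cells at E11.5 and 2209 at E14.5. The E11.5 library is labelled gonad, not ovary, and 14 of its 39 germ cells had a Y-linked UMI, against 18 of 295 at E12.5 and 1 of 2209 at E14.5, so that age and sex makeup cannot be told apart. The E11.5 gonads had the same 20 min in trypsin and the E14.5 ovaries 40 min. Dazl was at 46.0 CPM at E11.5, 622 at E12.5 and 1319 at E14.5, and Ddx4 at 36, 162 and 216. Pou5f1 was at 596, 422 and 231, and Utf1 at 704, 454 and 164. These 4 genes chose the cells. Among genes outside the rule, Dppa5a was at 3324, 2387 and 1102, Sycp3 at 16.1, 47.8 and 427, and Stra8 at 0, 31.9 and 1297. The intervals of neighbouring ages did not overlap for these genes, but they cover counting error only. The share of all genes without overlap was not counted, so this describes the genes named and no more.

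Set beside E14.5, 39 of 6980 compared genes (0.559%) were at least 4-fold higher at E12.5 and 118 (1.69%) at least 4-fold lower, or 67 and 181 when every cell was thinned to 5000 UMIs and 11 and 22 with a mean of at least 50 CPM. Of all compared genes 46.2% were higher and 53.8% lower in level at E12.5. All 22 compared meiotic entry genes were lower in level, 15 of them at least 4-fold. Stra8 was 40.7-fold lower (35.6 to 46.9). Taf7l, a germ line TFIID subunit, was at 2.58 against 144, Meioc, which stabilises the meiotic program, at 2.58 against 85.2, and Tex12, a central element protein of the synaptonemal complex, at 25.9 against 375. Tex101, a germ cell surface protein, was at 8.34 against 236, and Spdya, a meiotic CDK activator, at 0.455 against 46.1. The class I genes H2-K1 and H2-D1 were at 1.67 against 72.1 and 0.607 against 43.2. Dmrtc2 was at 1.67 against 53.6, Tsc22d3 at 1.67 against 43.5 and Lypd4 at 0 against 22.1. All 18 compared pluripotency genes were higher in level at E12.5, 2 of them, L1td1 and Nanog, at least 4-fold. L1td1, an RNA-binding protein of pluripotent cells, was at 148 against 15.2 and Nanog at 32.3 against 6.76. Hmgn5, a nucleosome-binding protein, was at 305 against 27.7, Akap12 at 159 against 24.1 and Pfkp, a glycolytic enzyme, at 33.1 against 4.28. Fermt3, Dusp4 and Snhg20 were at 28.1 against 2.38, 22.3 against 2.38 and 26.2 against 3.11.

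Some differences between ages were shared by the other cells of the libraries. Hist1h2ap was at 965 in E12.5 germ cells and 3.41 in E14.5 germ cells, and at 624 and 0.620 in the other cells of the same libraries. Scand1 was at 56.1 and 4.38 in germ cells and 139 and 14.8 in the other cells. Akap12 was at 92.2 and 29.0 and Dusp4 at 15.1 and 5.13 in the other cells, where Hmgn5 was at 73.2 and 69.7. The embryonic haemoglobins Hbb-y and Hba-x were at 1155 and 152 at E12.5 against 187 and 22.1 at E14.5, and the adult Hbb-bs at 61.4 against 1149. In the other E12.5 cells Hbb-y was at 9963. The part of a library-wide source in these values was not tested.

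Set beside the 39 cells of E11.5, 63 of 6926 genes (0.91%) were at least 4-fold higher at E12.5 and 56 (0.809%) at least 4-fold lower. These counts were 81 and 41 under TMM, and 206 and 171 when every cell was thinned to 5000 UMIs. Among genes with a mean of at least 50 CPM they were 15 and 5. Of all compared genes 47.0% were higher in level at E12.5. Of 13 compared meiotic entry genes, all were higher in level and 7 at least 4-fold. Smc1b was at 360 against 24.8, 14.48-fold (9.36 to 23.8), Sycp1 at 49.3 against 4.97, and Mael, a piRNA pathway protein, at 47.6 against 3.73. Of 19 pluripotency genes, 3 (Dppa2, Sall4 and Lin28a) were higher in level and 1, Nr0b1, was at least 4-fold lower. Genes of neurons and adrenergic cells, among them Gap43, Dbh, Phox2a and Nefm, were among the lowest ranked at E12.5. A single E11.5 cell held 105 of the 129 UMIs of these 4 genes, and 49 genes were at least 4-fold lower without it. On the higher side stood 4 of 7 compared erythroid genes, whose list summed to 1996 CPM at E12.5 and 806 at E11.5. Without the E12.5 cell rich in haemoglobin the sum was 938, and 1 erythroid gene was at least 4-fold higher and 1 lower. Hbb-bs, an adult haemoglobin, was at 52.7 against 3.73 without that cell.

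**Figure D5:**
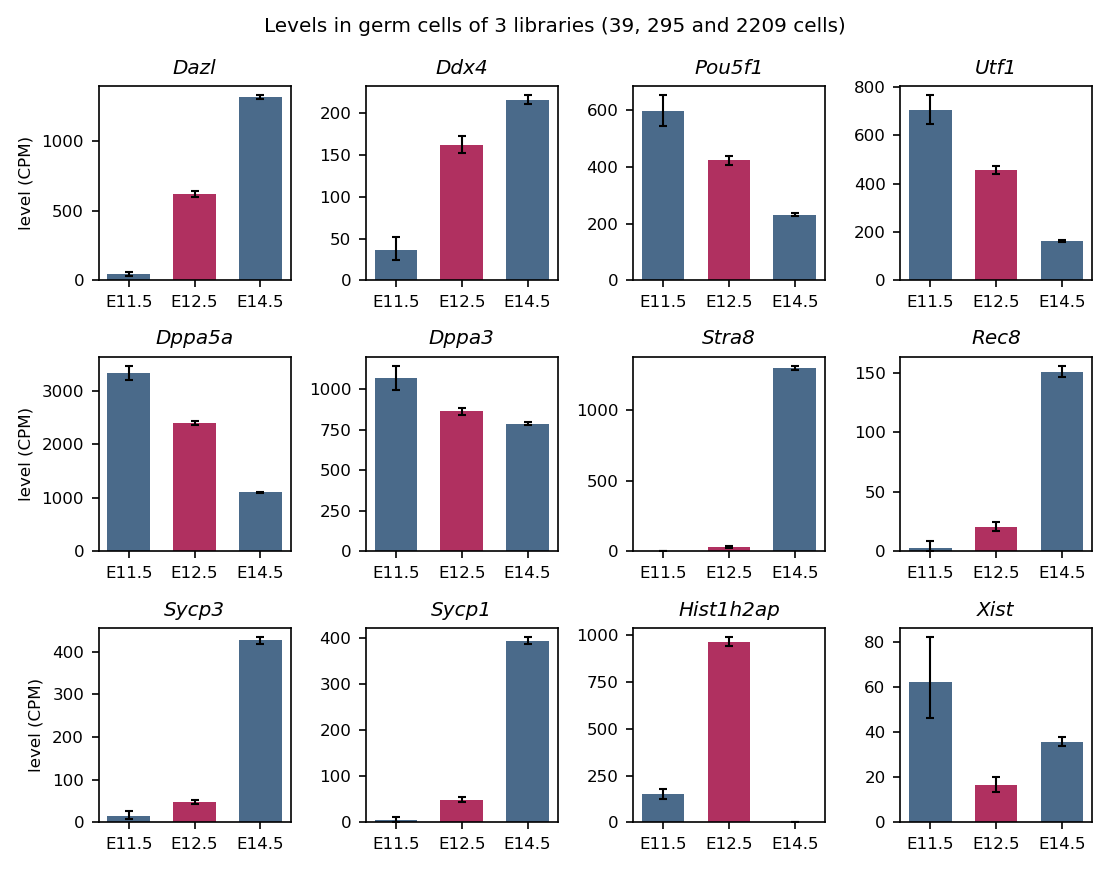
Levels (CPM) of 12 genes in germ cells taken by the same rule from the E11.5, E12.5 and E14.5 libraries (39, 295 and 2209 cells), with exact Poisson 95% intervals that cover counting error only. Stra8, at 0 at E11.5, has a bar to the level of 3 counts there. Pluripotency genes were lower at each later age, and Dazl, Ddx4 and the meiotic genes were higher. Hist1h2ap was highest at E12.5 and Xist was lowest at E12.5. In the other cells of these libraries Xist was at 779, 1206 and 2256 CPM, and their part in the germ cell values was not tested.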

How the data were processed

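Single-cell RNA libraries of mouse gonads (E11.5) and ovaries (6 later ages) were read as the count matrices the authors deposited, in which each value is a whole number of UMIs for a gene and a barcode. Per the labels, droplets were made with 10x v2 reagents. Counting was by Cell Ranger 3.1.0, at its default settings, on the supplier's mm10 reference 3.0. The submitters' processing notes also name Seurat. Removal of doublets before deposit is not given in the sources used here. The E12.5 library held 56662365 UMIs in 4744 barcodes, 500 of them below 1000 genes. The members and gene lists were chosen with earlier results of these data known.

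UMIs were summed over cells and scaled to 1000000 (CPM). Genes with a mean of at least 10 CPM were compared, and a ratio of at least 4 counted as apart. Ranking used log2 with 2 CPM added. Intervals were exact Poisson, binomial (Clopper-Pearson) or, for ratios, conditional on the sum, at 95%. Counts came from 1 library per age, so no test was used. Named genes were the markers and rule genes, up to 8 members per list by level with low regulators of meiotic entry or the male path, the 20 highest and 12 lowest ranked, the 12 highest and lowest against E14.5, and the 12 of highest Fano factor. Genes with a model or clone name were counted but not named, except Meiosin. Genes named beyond this rule (further list members, the E11.5 comparison and genes beside the Stra8 cells) were chosen after their values were seen. Thinning drew UMIs without replacement. Doublets were scored with Scrublet in scanpy 1.11.5. Its automatic call marked 24 cells, so the highest 5% served as an alternative. TMM came from edgeR 4.0.16, without a test. Calling and thinning were tested on simulated data. Chromosomes came from GENCODE vM21 (GRCm38) and promoters from RefSeq.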

Additional observations from a re-analysis of the deposited data

How the results depend on the processing

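No paired analysis was possible because each age is 1 library and no result comes from a test. Of the 32 highest and lowest ranked genes, the 27 outside the rule kept their direction and stayed at least 4-fold apart on the ranking scale under the 9 alternatives that can move a ratio. These genes were picked as the most extreme of the same cells, so this says little about genes nearer the 4-fold line. The share of germ cells was 8.41% without the limits on collagen and Wnt6, outside its interval, and within it under the other alternatives. Counts at least 4-fold higher and lower were 79 and 236 with a mean of at least 50 CPM, 924 and 5162 with no filter beyond 10 UMIs, and 995 and 2276 at 2-fold. TMM gave 370 and 1000. The X-linked difference turned to 0.24 with the filter at 50 and to 0.10 without X-linked genes at least 4-fold apart, an alternative that removes more lower than higher genes and so had to raise it. The share with a Stra8 UMI was 10.6% at 5000 UMIs. Against E14.5 the counts were 11 and 22 with the filter at 50 and 67 and 181 at 5000 UMIs, and against E11.5 they were 15 and 5, and 206 and 171. A few further alternatives were added after seeing the data: leaving out the 62 mixed cells gave 284 and 1236, leaving out the haemoglobin-rich cell gave 261 and 1220, the unmarked other cells were also used for the lists, and the E11.5 cell rich in neural UMIs was left out. The E11.5 comparison rests on 39 cells, and leaving out the neural-rich cell gave 67 and 49 in place of 63 and 56.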

Other observations

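The 62 cells with germ and somatic genes had a median of 21645 UMIs, close to the 23264 of the germ cells, with Dazl at 447, Wnt4 at 107 and Xist at 332 CPM. Of them, 9 were among the 5% of cells with the highest Scrublet score, as were 2 of the 295 germ cells. Whether they are doublets was not tested.

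The 43 germ cells below 10000 UMIs differed from the 252 deeper ones in some somatic genes and some germ genes. The supporting cell markers summed to 209 CPM in the shallow cells and 20.0 in the deep cells, and Xist was at 64.0 and 14.8. The erythroid list went the other way, at 1225 and 2024. The pluripotency list was at 4357 and 4527 and the meiotic entry list at 1263 and 1255. The germ granule and piRNA list was at 871 and 697, and Dazl at 811 and 615.

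Among genes of adhesion and germ line cysts, Epcam, a cell adhesion molecule, was at 214 CPM against 46.6 in the other cells, and Tex14, a component of intercellular bridges, at 82.8 against 2.93. Lower members of that list were the gap junction gene Gja1, at 1.52 against 72.3, and the integrin Itga6, at 10.9 against 121. Of 10 compared apoptosis genes, none was at least 4-fold higher and 3 were lower, among them the survival gene Bcl2 at 1.52 against 78.4, and 8 of the 10 were lower in level, where 57.5% of all compared genes were lower in level and 15.2% at least 4-fold lower. Under TMM the 3 lower genes were 2. Bax, a cell death effector, was at 406 against 143. Of signals known to be sent by germ cells, 2 passed the filter on level and 1 was at least 4-fold lower, while Pdgfa, a growth factor, was at 165 against 62.6.

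Applied to the later libraries, the same rule took 759 cells (E16.5), 323 (E18.5), 185 (P1) and 44 (P5).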
